A study of Mus musculus with 28 samples.

Results

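The lungs of mice that express the human cytidine deaminase APOBEC3B (A3B) were compared with control lungs by RNA-seq, using 6 lungs of the 28 samples in the series and the 13651 genes, of 24849 in the table, whose mean over the 6 lungs was at least 1 TPM, a read count scaled for transcript length and for the total of each sample. The A3B lungs came from mice 69, 70 and 74, which carried the human A3B cDNA fused to turboGFP under a tetracycline-responsive promoter downstream of the Col1A1 locus together with the ubiquitous driver CAGs-rtTA, and which received doxycycline food at 625 ppm for 10 days from 4 weeks of age. The control lungs came from mouse 87, with the driver alone, and from mice 88 and 91, with the A3B transgene alone. The sample labels give 15 days of treatment at 625 ppm for all 3 controls. The study's methods likewise state that control littermates of both genotypes received doxycycline, whereas its list of animals records both transgene-only controls as not given it. The transgene was inserted in KH2 embryonic stem cells, and the number of clones is not given in the sources used here. The study's methods describe the controls as littermates. The A3B mice were taken at a humane endpoint and the controls were not, so that the A3B protein, illness and treatment time cannot be told apart in these groups. Controls 88 and 91 also lacked the driver and, by the list of animals, doxycycline, and the part of either was not tested. Values below are listed for controls 87, 88 and 91 and for A3B lungs 69, 70 and 74, in that order, and fold changes are differences of mean log2(TPM + 1), A3B minus control, with their standard error (n = 3 lungs per group).

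A3B belongs to the APOBEC3 enzymes, which deaminate cytosine in single-stranded DNA and restrict viruses and retroelements. The lung combines alveolar type I cells, across which gas is exchanged, alveolar type II cells, which secrete surfactant, airway cells, a dense capillary network, fibroblasts and resident immune cells, and RNA of whole lung holds all of them. Fewer cells of a type and less RNA per cell cannot therefore be told apart. Glucocorticoids, which the adrenal gland releases in severe illness, act through a nuclear receptor on genes that hold its response element, and interferons act through STAT and IRF factors on genes with the interferon-stimulated response element.

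The human A3B transgene was measured first, as a check of the labels. It was at 0.472, 0.435 and 0.526 TPM in the controls and at 90.6, 281 and 115 TPM in the A3B lungs. Every A3B lung lay above every control, A3B lung 70 held the highest level, and the difference of 6.61 on the log2 scale gave p = 0.1 in a two-sided exact permutation test, the smallest p that 3 against 3 lungs allow. Lung identity was checked with surfactant protein B (Sftpb), a product of alveolar type II cells. Sftpb was at 6310.4, 6941 and 5918 TPM in the controls and at 7308, 6741 and 6312 TPM in the A3B lungs, and the groups overlapped.

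Hepatocyte transcripts varied among the lungs of both groups. Albumin (Alb) was at 0.331, 245 and 23.6 TPM in the controls and at 3.83, 189.8 and 216 TPM in the A3B lungs, so that control 88 and A3B lungs 70 and 74 were high, control 91 intermediate and control 87 and A3B lung 69 low. None of the 12 hepatocyte markers tested passed the test between the groups, and their summed level ranged from 1411 to 4377 TPM in the controls and from 1414 to 3334 TPM in the A3B lungs, of which transferrin (Trf), at 1292 to 3039 TPM, made up the largest part in every lung. The sum thus did not follow Alb, since control 87 had a sum of 1553 TPM with Alb at 0.331 TPM. Brown and white fat markers stood out in A3B lung 70, where the thermogenic uncoupling protein Ucp1 was at 37.0 TPM, while the other 5 lungs were between 0.0551 and 1.36 TPM. The 11 adipocyte markers tested summed to 367 to 629 TPM in the controls and to 709.7 to 1967 TPM in the A3B lungs, and 3 of them rose (27.3%, against 16.1% of all genes). None rose in the fit over 12 lungs and livers, and the median of the list, 1.06, became -0.06 without A3B 70. The part of these transcripts in the results below was not tested. Ucp1, Alb and Trf were singled out after their values were seen.

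Of the genes tested, 2191 were higher and 2838 lower in A3B lungs at an adjusted p under 0.05, 36.8% in all, with 16.1% higher and 20.8% lower. The balance of the directions moved with the scaling and the lungs used, since trimmed-mean scaling gave 2538 higher and 2447 lower and leaving out A3B 69 and control 87 together gave 949 higher and 855 lower. The 3 A3B lungs did not overlap with the 3 controls in 53.9% of the genes, with 23.3% higher and 30.6% lower. The first principal component, with 54.5% of the variance, separated the groups, and the second, with 26.9%, placed control 87, control 91 and A3B lung 69 on one side, at 25.7, 4.36 and 35.2, and the other 3 lungs on the other. One limma fit over these lungs and 6 livers of the same table, which shares 1 estimate of the spread between the tissues, called 431 genes higher and 578 lower in A3B lung. Calls moved with gene length. Among genes with 200 to 1000 exon bases 3.11% were higher and 40.0% lower, whereas among genes over 8000 bases 32.6% were higher and 6.13% lower. The 91 genes under 200 bases broke this order, with 14.3% higher and 9.89% lower. The Spearman correlation of fold change and length was 0.343 across 13476 genes, which are not independent replicates. Its part in the results below was not tested.

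**Figure D1:**
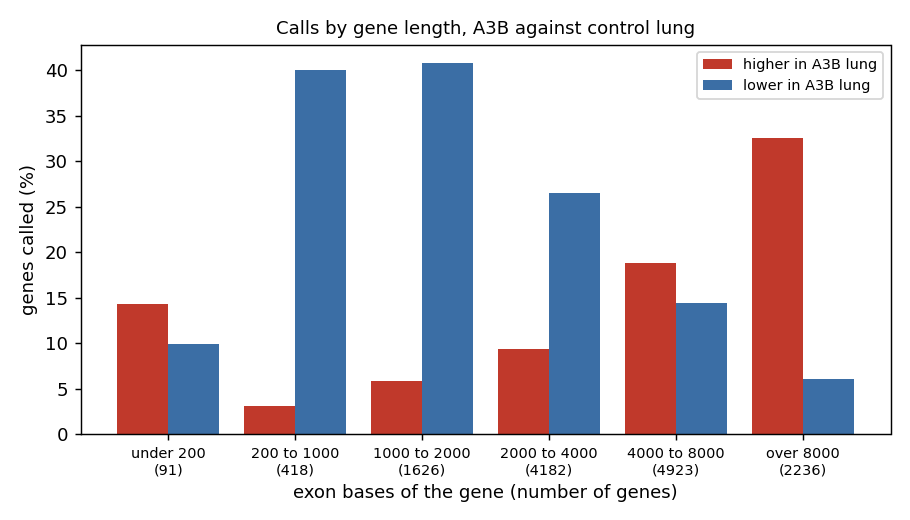
Share of genes called higher (red) or lower (blue) in A3B lung, in percent, by the exon bases of the gene. Between 200 and 1000 bases 40.0% of genes were lower, and over 8000 bases 32.6% were higher.

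Doc2b (chr11:75768966-75796049, minus strand) and Fkbp5 (chr17:28399094-28517527, minus strand) were among the largest rises, and Tnfsf10 (chr3:27317028-27342427) and Myct1 (chr10:5593775-5606904), both on the plus strand, among the largest falls, all of them protein-coding genes of the GENCODE mouse annotation of GRCm38. The largest rises named by rule were those of the transgene and of genes with varied roles. Doc2b, a calcium sensor of vesicle fusion, was at 0.965, 0.782 and 0.492 TPM in the controls and at 46.9, 28.0 and 17.1 TPM in the A3B lungs (4.08 ± 0.34, adjusted p = 0.00214). The difference of Ramp3, an accessory protein of the adrenomedullin receptor, was of the same order, since it was at 29.9, 22.6 and 17.7 TPM in the controls and at 431, 223 and 173 TPM in the A3B lungs (3.42 ± 0.37, adjusted p = 0.00341). Both genes were several times higher in every A3B lung than in any control. The amino acid transporter Slc38a4 was at 16.3, 27.2 and 9.81 TPM in the controls and at 156, 170.1 and 140.0 TPM in the A3B lungs (3.16 ± 0.33, adjusted p = 0.00317), the transcription factor Tcf23 rose by 3.05 and the calmodulin-dependent kinase Camk2b by 3.02, and in none of them did the groups overlap. Camk2b did not pass the test in the fit over 12 lungs and livers (adjusted p = 0.273).

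Short non-coding rows also lay among the 15 largest rises, and reads of longer transcripts at the same locus fall on such rows, so that they do not measure the mature small RNA. The row of Snord53, with 78 exon bases, was at 7.48, 2.21 and 5.16 TPM in the controls and at 124, 75.0 and 48.8 TPM in the A3B lungs (3.82 ± 0.47, adjusted p = 0.00487). Mirlet7e was listed at 0 in controls 87 and 88 and at 2.26 TPM in control 91, against 19.9, 16.9 and 9.72 TPM in the A3B lungs. Mir212 was listed at 0 in all 3 controls and at 10.8, 6.68 and 9.22 TPM in the A3B lungs.

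Among the largest falls, Tnfsf10, which encodes the death ligand TRAIL, was at 37.2, 55.7 and 40.1 TPM in the controls and at 2.21, 5.01 and 11.7 TPM in the A3B lungs (-2.83 ± 0.50, adjusted p = 0.0106). Myct1, an endothelial gene, was at 202, 242 and 257 TPM in the controls and at 30.1, 34.1 and 52.3 TPM in the A3B lungs (-2.59 ± 0.21, adjusted p = 0.00178). All 3 A3B lungs were below all 3 controls for both genes. Ppp2r2c, a regulatory subunit of protein phosphatase 2A, was at 62.3, 40.0 and 41.5 TPM in the controls and at 7.42, 4.88 and 7.69 TPM in the A3B lungs (-2.67 ± 0.22, adjusted p = 0.00186). The low-affinity IgE receptor of B cells, Fcer2a, fell by 2.61, the surrogate light chain Vpreb1 fell by 2.25 and the sodium channel subunit Scn3b fell by 2.20 on the log2 scale. The mucosal trefoil peptide Tff2 fell by 2.17 and the neuronal calcium sensor Hpcal4 fell by 2.14. Fcer2a did not pass the test without control 88, control 91, A3B 69, A3B 70 or A3B 74 (adjusted p up to 0.113). Vpreb1 did not pass the test without control 91 or A3B 69 (adjusted p up to 0.0657). Tff2 did not pass the test without control 87, control 91 or A3B 70 (adjusted p up to 0.087).

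**Figure D2:**
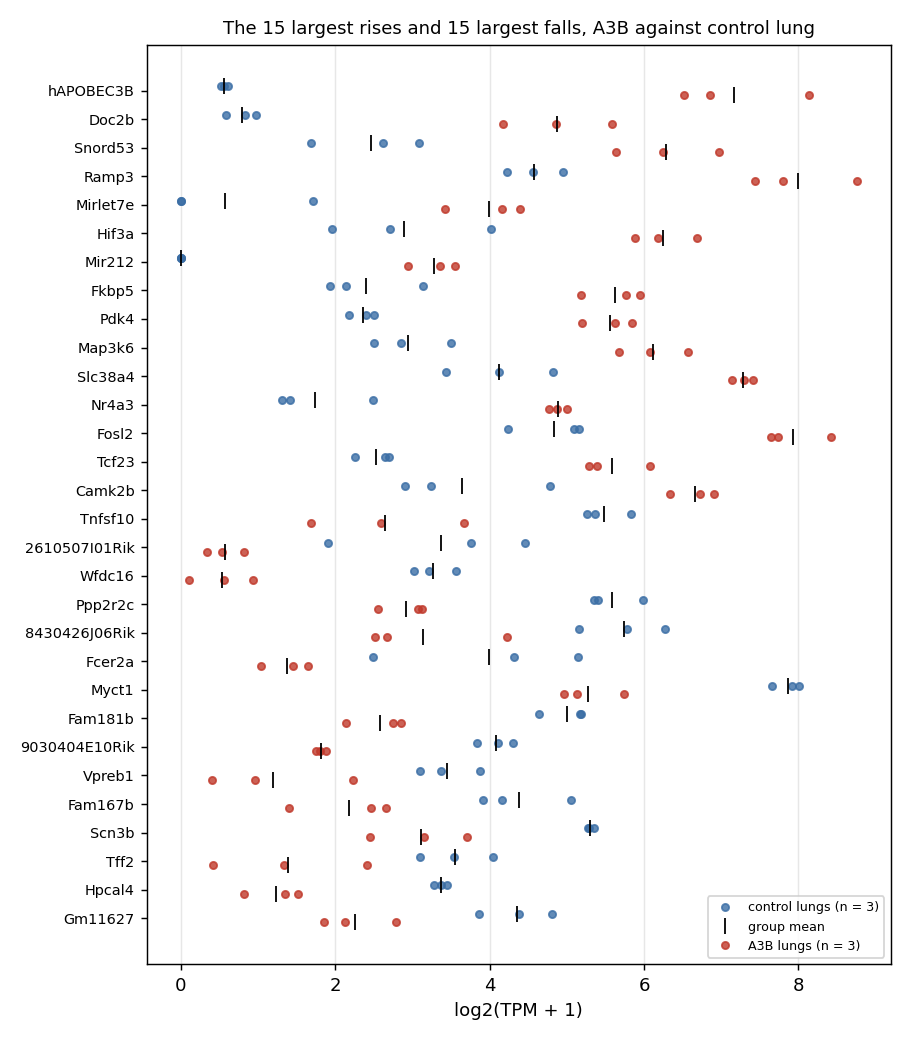
Level of the 15 largest rises and 15 largest falls in each lung, as log2(TPM + 1), with controls in blue, A3B lungs in red and the group mean as a bar. No gene shown has an A3B lung within the range of the controls, which the rule for naming them required.

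Most glucocorticoid-responsive genes rose. All 28 genes of the list were tested, 21 rose (75%), none fell and 7 did not pass the test, and the median fold change was 1.49 against -0.06 for all genes tested. The share after a count is of the members tested, here and below, and stands beside 16.1% higher and 20.8% lower of all genes. Of the glucocorticoid list 10 rose and 0 fell in the fit over 12 lungs and livers. Fkbp5, a co-chaperone that limits the glucocorticoid receptor, was at 7.76, 2.81 and 3.41 TPM in the controls and at 60.5, 53.3 and 35.3 TPM in the A3B lungs (3.23 ± 0.36, adjusted p = 0.00346). Pdk4, a kinase that shuts off pyruvate oxidation, was at 3.51, 4.29 and 4.66 TPM in the controls and at 48.3, 56.6 and 35.6 TPM in the A3B lungs (3.20 ± 0.18, adjusted p = 0.0014). The stress kinase Map3k6 was at 10.3, 4.65 and 6.19 TPM in the controls and at 94.3, 66.6 and 50.2 TPM in the A3B lungs (3.16 ± 0.32, adjusted p = 0.00301). Control 87, the mouse with the driver alone, held the highest control level of Fkbp5 and Map3k6, and it was still below every A3B lung.

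The most abundant members of the list changed as well. Ddit4, an inhibitor of mTORC1, was at 666, 349 and 248 TPM in the controls and at 2857, 2018 and 2070.4 TPM in the A3B lungs (2.56 ± 0.37, adjusted p = 0.00585). The metallothionein Mt1 was at 399.6, 372 and 303 TPM in the controls and at 1175, 1311 and 871 TPM in the A3B lungs (1.63 ± 0.18, adjusted p = 0.00313), and Mt2, a second metallothionein, was at 65.5, 81.1 and 55.1 TPM in the controls and at 409, 555 and 361 TPM in the A3B lungs (2.69 ± 0.20, adjusted p = 0.00173). Groups did not overlap for any of these. The transcription factor Cebpd rose by 0.89, the lipase inhibitor Angptl4 by 1.76 and the cell cycle inhibitor Cdkn1a, which p53 also controls, by 2.83. Hif3a, which is in the hypoxia list too, was at 15.2, 2.88 and 5.51 TPM in the controls and at 102, 71.9 and 57.9 TPM in the A3B lungs (3.36 ± 0.55, adjusted p = 0.00919). Mt1, Mt2 and Cebpd did not pass the test in the fit over 12 lungs and livers (adjusted p from 0.0741 to 0.185).

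**Figure D3:**
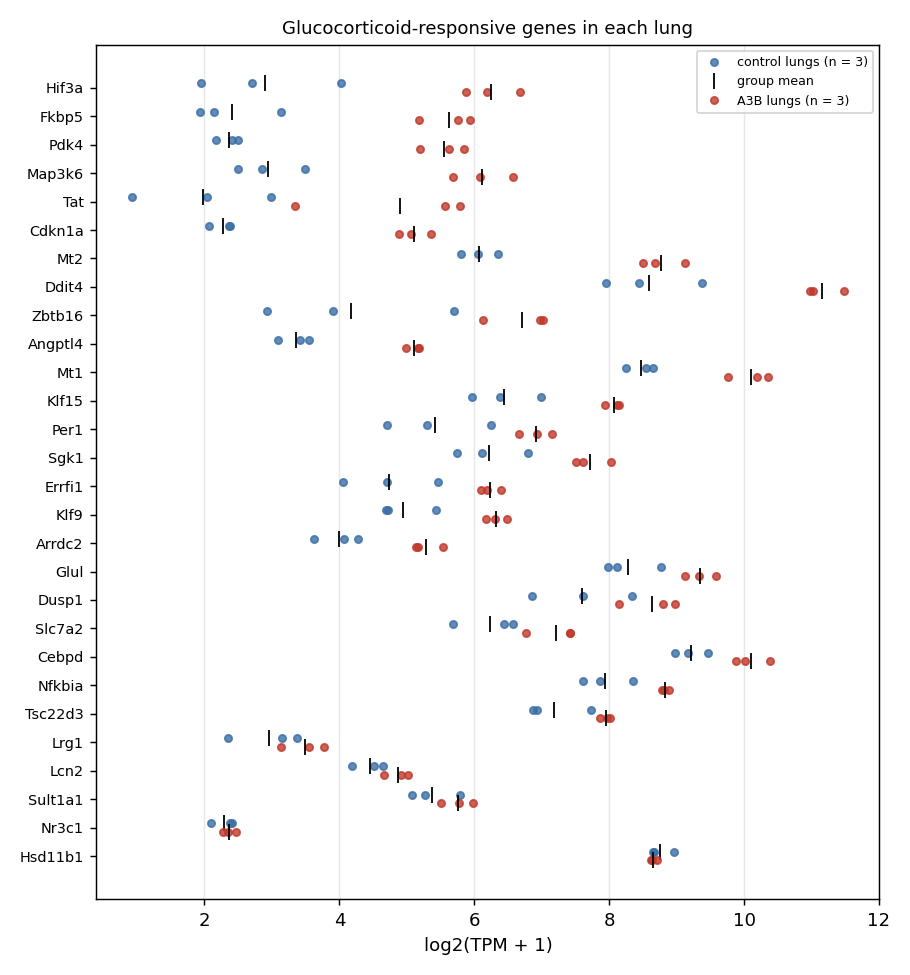
Level of the 28 glucocorticoid-responsive genes in each lung, as log2(TPM + 1), ordered by fold change, with controls in blue, A3B lungs in red and the group mean as a bar. Fkbp5, Pdk4 and Map3k6 stand at the upper end of the order, and 21 genes passed the test.

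Promoters were searched for the glucocorticoid response element, spelled GNACANNNTGTNC and read on both strands, in windows of 250 bases before to 50 bases after each gene's start (RefSeq, GRCm38.p6). Of the 28 genes, 23 had a window, and 3 of their 33 windows held a match, those of Map3k6, Mt1 and Sgk1. A match was in 0.475% of all 32851 windows and in 0.349% of those of the genes tested. Each of these 3 genes rose, and they are part of the 21 of 28 genes of the list that rose. A metal response core, TGCNCNC, was in 19 of the 33 windows of these genes, and in 51.0% of all windows and 59.1% of those of the genes tested. The 3 windows with the glucocorticoid element are shown because they are the members of the list with a match, and that match is in capitals.
Map3k6 promoter, chr4:133240568-133240867, + strand: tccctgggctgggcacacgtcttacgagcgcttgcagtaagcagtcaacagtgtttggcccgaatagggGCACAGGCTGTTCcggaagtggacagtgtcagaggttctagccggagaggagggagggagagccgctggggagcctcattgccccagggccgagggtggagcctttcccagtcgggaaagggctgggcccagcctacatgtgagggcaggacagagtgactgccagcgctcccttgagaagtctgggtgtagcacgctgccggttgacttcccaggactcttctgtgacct
Mt1 promoter, chr8:94178839-94179138, + strand: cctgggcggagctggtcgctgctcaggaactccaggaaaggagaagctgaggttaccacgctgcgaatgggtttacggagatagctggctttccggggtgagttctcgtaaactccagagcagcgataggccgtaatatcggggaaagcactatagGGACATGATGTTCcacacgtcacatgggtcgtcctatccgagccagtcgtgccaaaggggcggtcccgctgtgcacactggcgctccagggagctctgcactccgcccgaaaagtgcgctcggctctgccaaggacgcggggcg
Sgk1 promoter, chr10:21993640-21993939, + strand: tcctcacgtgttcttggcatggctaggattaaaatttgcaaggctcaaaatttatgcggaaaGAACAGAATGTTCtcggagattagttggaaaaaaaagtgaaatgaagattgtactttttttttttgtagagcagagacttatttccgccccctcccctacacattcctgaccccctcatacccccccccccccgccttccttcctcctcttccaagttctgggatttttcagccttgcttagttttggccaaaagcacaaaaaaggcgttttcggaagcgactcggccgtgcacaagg
Sgk1, a kinase that raises sodium channel activity and was named for this match after its values were seen, was at 111, 68.1 and 52.8 TPM in the controls and at 261, 181 and 194 TPM in the A3B lungs (1.49 ± 0.28, adjusted p = 0.0106), and no A3B lung was within the range of the controls. Sgk1 did not pass the test in the fit over 12 lungs and livers (adjusted p = 0.118).

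Of 20 circadian clock genes tested, 7 rose (35%), 1 fell (5%) and 12 did not pass the test (median 0.53). Of the clock genes 1 rose and 0 fell in the fit over 12 lungs and livers. The repressor Nfil3 was at 0.743, 1.34 and 0.808 TPM in the controls and at 3.99, 4.07 and 3.58 TPM in the A3B lungs (1.33 ± 0.14, adjusted p = 0.00292). The nuclear receptor Rora rose by 0.95, the kinase Csnk1e by 0.68 and Clock by 0.55. The member that fell, singled out after its values were seen, was Dbp, a clock output factor, which was at 79.3, 33.1 and 54.5 TPM in the controls and at 22.2, 19.5 and 10.5 TPM in the A3B lungs (-1.60 ± 0.39, adjusted p = 0.0244). Control 87 was the highest control for Dbp, a D-box, TTATGNAA, was in 2 of the 24 windows of clock genes and in 3.38% of all windows, and the time of day at which the lungs were taken is not given in the sources used here. The number of rises was 4 without A3B 69, 4 without A3B 70, 14 without control 87 and 4 without control 91. Dbp did not pass the test without control 91, A3B 70 or A3B 74 (adjusted p up to 0.074). Rora, Csnk1e, Clock and Dbp did not pass the test in the fit over 12 lungs and livers (adjusted p from 0.0865 to 0.393).

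Immediate early genes encode transcription factors that respond to stimuli within minutes. Of 29 tested, 10 rose (34.5%), 2 fell (6.9%) and 17 did not pass the test (median 0.54), and the number of rises was 6 without A3B 69, and that of falls was 1 without A3B 69, 1 without A3B 70, 1 without A3B 74, 1 without control 87 and 1 without control 88. Of the immediate early genes 4 rose and 1 fell in the fit over 12 lungs and livers, and the lungs alone gave 1 fall with no filter on low values or after quantile normalization. Fosl2, an AP-1 subunit, was at 33.1, 34.8 and 17.8 TPM in the controls and at 342, 212 and 199 TPM in the A3B lungs (3.10 ± 0.32, adjusted p = 0.00301). The orphan receptor Nr4a3 was at 1.48, 4.59 and 1.65 TPM in the controls and at 28.3, 31.2 and 26.2 TPM in the A3B lungs (3.15 ± 0.31, adjusted p = 0.0029) and its relative Nr4a2 rose by 1.92. Maff, a small leucine zipper factor, was at 132, 55.4 and 60.4 TPM in the controls and at 634, 521 and 452 TPM in the A3B lungs (2.78 ± 0.34, adjusted p = 0.00436). All A3B lungs exceeded all controls for these 4 genes. The cAMP response element TGACGTCA was in 3 of the 29 windows of immediate early genes, in 1.79% of all windows and in 2.83% of those of the genes tested. Jun and Ier2 were among the most abundant members and did not pass the test, at 0.10 ± 0.14, adjusted p = 0.601 and 0.36 ± 0.21, adjusted p = 0.212. The 2 that fell were Ier3 (-1.46 ± 0.20, adjusted p = 0.00486) and Egr3 (-1.56 ± 0.47, adjusted p = 0.0465), named after their values were seen. Egr3 did not pass the test without control 87, control 88, A3B 69, A3B 70 or A3B 74 (adjusted p up to 0.12). Ier3 did not pass the test in the fit over 12 lungs and livers (adjusted p = 0.308).

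Of 32 genes of fatty acid oxidation and PPAR targets, 9 rose (28.1%) and none fell (median 0.62), with 1 fall without control 87. Of these genes 3 rose and 0 fell in the fit over 12 lungs and livers. Ucp2, a mitochondrial carrier, was at 443, 464 and 387 TPM in the controls and at 999.8, 838 and 783 TPM in the A3B lungs (1.01 ± 0.13, adjusted p = 0.00398), and the thioesterase Acot1 rose by 1.18. Of 20 hypoxia response genes 10 rose (50%) and 2 fell (10%) (median 0.56), and the number of rises was 6 without A3B 70 and that of falls 1 without A3B 69, 1 without A3B 70, 1 without control 87 and 1 without control 91. Of the hypoxia genes 2 rose and 0 fell in the fit over 12 lungs and livers. Epas1, the oxygen-regulated factor HIF-2 alpha of lung endothelium, was at 181, 167 and 151 TPM in the controls and at 289, 261 and 285 TPM in the A3B lungs (0.74 ± 0.10, adjusted p = 0.00484). Vegfa, which type I cells secrete to maintain capillaries, was the most abundant member and lower, at 1908, 1792 and 1779 TPM in the controls and at 1316, 1364 and 1337 TPM in the A3B lungs (-0.45 ± 0.09, adjusted p = 0.0101). Of 21 glycolysis genes 5 rose (23.8%), 1 fell (4.76%) and 15 did not pass the test (median 0.04), and 3 rose without A3B 69, without A3B 70 or without control 91. Of the glycolysis genes 3 rose and 0 fell in the fit over 12 lungs and livers, and the lungs alone gave 0 falls with no filter on low values or after trimmed-mean scaling. Those that rose included the glucose transporter Slc2a3 (1.16) and hexokinase Hk2 (1.69), and no fall was called without A3B 69, A3B 74 or any 1 of the 3 controls. Ucp2, Acot1, Epas1 and Vegfa did not pass the test in the fit over 12 lungs and livers (adjusted p from 0.0784 to 0.504).

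Genes of the respiratory chain were lower where they passed the test. Of 34 tested, none rose, 19 fell (55.9%) and 15 did not pass the test (median -0.40). The number of falls was 5 without A3B 69, 11 without A3B 70, 12 without A3B 74, 9 without control 87 and 7 without control 91, and none was called without both A3B 69 and control 87. Of the subunits 0 rose and 0 fell in the fit over 12 lungs and livers, and the lungs alone gave 12 falls after trimmed-mean scaling. The complex I subunit Ndufa4 was at 602, 419.9 and 645 TPM in the controls and at 277, 329 and 327 TPM in the A3B lungs (-0.82 ± 0.18, adjusted p = 0.0147). A second complex I subunit, Ndufc1, was at 40.5, 30.7 and 45.2 TPM in the controls and at 16.2, 21.2 and 19.9 TPM in the A3B lungs (-0.97 ± 0.17, adjusted p = 0.00797). No A3B lung reached the lowest control for either gene. Genes of this list had a median of 2208.5 exon bases against 4231.5 for all genes with a length. Cytosolic ribosomal protein genes, with a median of 1805.5 bases, showed a median of -0.37, and all 36 were below 0, but 3 of them passed the test (8.33%), and the number was 0 without A3B 69, 0 without A3B 70, 1 without A3B 74, 0 without control 87, 33 without control 88 and 0 without control 91, and 1 fall after trimmed-mean scaling was called. Of the ribosomal protein genes 0 rose and 0 fell in the fit over 12 lungs and livers. Ndufa4 and Ndufc1 did not pass the test in that fit (adjusted p from 0.0649 to 0.105).

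Of 42 interferon-stimulated genes tested, 16 rose (38.1%), 3 fell (7.14%) and 23 did not pass the test (median 0.43), and the number of rises was 9 without A3B 70 and 6 without A3B 74. Of the interferon list 1 rose and 0 fell in the fit over 12 lungs and livers. Irf7, the factor that amplifies type I interferon, was at 8.37, 14.0 and 16.3 TPM in the controls and at 67.7, 51.9 and 75.5 TPM in the A3B lungs (2.28 ± 0.25, adjusted p = 0.00315). The oligoadenylate synthetase family member Oasl1 was at 0.849, 2.01 and 1.92 TPM in the controls and at 5.79, 5.60 and 8.32 TPM in the A3B lungs (1.56 ± 0.23, adjusted p = 0.00555), and Oas3 rose by 1.67. The 3 genes that fell were the guanylate-binding proteins Gbp2, Gbp3 and Gbp5, which respond mainly to interferon gamma. Gbp2 was at 37.9, 56.3 and 37.1 TPM in the controls and at 8.52, 17.7 and 19.9 TPM in the A3B lungs (-1.51 ± 0.33, adjusted p = 0.0162), Gbp3 fell by 0.74 and Gbp5 fell by 1.25. Gbp2 and Gbp3 were named after their values were seen. In A3B lung 74 Irf7 was highest and all 3 Gbp genes were nearest to the controls, and 6 genes fell when that lung was left out. Gbp3 did not pass the test without control 88, control 91, A3B 69 or A3B 70 (adjusted p up to 0.0971). Irf7, Oasl1, Oas3, Gbp2, Gbp3 and Gbp5 did not pass the test in the fit over 12 lungs and livers (adjusted p from 0.0688 to 0.634).

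The interferon-stimulated response element, spelled GAAANNGAAA and read on both strands, was found in 20 of the 36 windows of this list, against 3.44% of all windows. Of the 19 genes with a match 6 rose and 3 fell, and of the 12 without a match 5 rose and none fell. The windows of Ifit1, a rising gene, and Gbp2, a falling one, are shown because both hold the element in capitals and the genes moved in opposite directions.
Ifit1 promoter, chr19:34640639-34640938, + strand: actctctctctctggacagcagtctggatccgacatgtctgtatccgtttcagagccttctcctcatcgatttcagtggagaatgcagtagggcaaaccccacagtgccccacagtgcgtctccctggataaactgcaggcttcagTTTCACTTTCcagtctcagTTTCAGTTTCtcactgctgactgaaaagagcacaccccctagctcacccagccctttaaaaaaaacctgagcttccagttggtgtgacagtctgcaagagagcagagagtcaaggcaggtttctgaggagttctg
Gbp2 promoter, chr3:142620413-142620712, + strand: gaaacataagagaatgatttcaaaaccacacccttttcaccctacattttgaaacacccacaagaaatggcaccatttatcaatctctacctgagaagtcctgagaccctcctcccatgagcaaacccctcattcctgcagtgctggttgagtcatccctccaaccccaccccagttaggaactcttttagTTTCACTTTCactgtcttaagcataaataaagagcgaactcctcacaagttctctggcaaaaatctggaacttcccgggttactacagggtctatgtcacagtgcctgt
Ifit1, an antiviral protein that binds foreign RNA and was chosen after its values were seen, was at 8.89, 16.3 and 8.71 TPM in the controls and at 37.2, 24.3 and 54.6 TPM in the A3B lungs (1.67 ± 0.35, adjusted p = 0.0147), and Gbp2 had the values given above. No A3B lung was within the control range for Ifit1. Ifit1 did not pass the test without control 91 or A3B 69 (adjusted p up to 0.0521). Ifit1 did not pass the test in the fit over 12 lungs and livers (adjusted p = 0.115).

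Of 12 genes of antigen presentation by MHC class II tested, 7 fell (58.3%), 1 rose (8.33%) and 4 did not pass the test (median -0.82), and the number of falls was 3 without A3B 69, 3 without A3B 74, 4 without control 88 and 2 without control 91. Of the class II genes 0 rose and 1 fell in the fit over 12 lungs and livers. Ciita, the master regulator of these genes, was at 12.4, 26.7 and 25.0 TPM in the controls and at 3.29, 7.25 and 6.30 TPM in the A3B lungs (-1.74 ± 0.36, adjusted p = 0.0148). The invariant chain Cd74 was at 761, 1075 and 906 TPM in the controls and at 426, 641 and 516 TPM in the A3B lungs (-0.80 ± 0.19, adjusted p = 0.0188), and the peptide-loading chain H2-DMb1 was at 49.9, 63.1 and 70.8 TPM in the controls and at 24.8, 29.7 and 29.8 TPM in the A3B lungs (-1.09 ± 0.15, adjusted p = 0.00486). No A3B lung was within the control range for these 3 genes, and the co-stimulatory ligand Cd80 rose by 0.75. Markers of B cells and dendritic cells, which carry class II, were lower on average in the same lungs. The median was -1.16 for 11 B cell markers, 10 of them below 0, and -0.43 for 11 dendritic cell markers, 8 of them below 0. Macrophage markers leaned the other way. The median was 0.09 for 16 alveolar and 0.17 for 14 interstitial macrophage markers, 10 of each above 0. The former was -0.02 without control 91 and the latter -0.02 without A3B 70. Of the B cell and dendritic cell lists 2 B cell markers fell and 1 dendritic cell marker rose. The part of all these cells in the class II result was not tested. Of 16 MHC class I presentation genes 7 fell (43.8%) and 1 rose (6.25%). Of the class I genes 0 rose and 0 fell in the fit over 12 lungs and livers. Those named were Psmb10, a subunit of the immunoproteasome, which fell by 1.02, its activator Psme2, which fell by 0.78, and H2-Q4, which rose by 0.64. Without control 88, 2 class I genes rose. The number of class I falls was 3 without A3B 69, 3 without A3B 70, 4 without control 88 and 4 without control 91. The classical chains H2-K1 and H2-D1 did not pass the test, at 0.26 ± 0.12, adjusted p = 0.141 and 0.12 ± 0.09, adjusted p = 0.312. B2m, a further member of the class I list, was listed at 0 TPM in every lung and so was not tested. Ciita did not pass the test without control 91 (adjusted p up to 0.0516). Cd74 did not pass the test without control 91, A3B 69 or A3B 74 (adjusted p up to 0.0574). Cd74, H2-DMb1, Cd80, Psmb10, Psme2 and H2-Q4 did not pass the test in the fit over 12 lungs and livers (adjusted p from 0.118 to 0.562).

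Marker lists of cell types were then compared. In the fit over 12 lungs and livers 7 platelet and 3 lymphatic markers rose, and 4 aerocyte, 4 alveolar fibroblast, 2 type I, 2 ciliated, 2 erythroid, 2 B cell, 0 type II and 0 monocyte markers fell. Platelet and megakaryocyte markers rose, with 7 of 9 tested (77.8%) higher and none lower (median 1.29). The platelet tubulin Tubb1 was at 21.6, 18.6 and 17.3 TPM in the controls and at 147, 77.0 and 88.1 TPM in the A3B lungs (2.33 ± 0.24, adjusted p = 0.0029), and the receptor for von Willebrand factor, Gp1ba, was at 5.97, 4.77 and 6.93 TPM in the controls and at 37.6, 19.99 and 21.5 TPM in the A3B lungs (1.94 ± 0.25, adjusted p = 0.00431). A3B lung 69 was the highest lung for both. Of the 3 erythroid markers tested 2 fell (66.7%), and 1 fell without A3B 69 or without A3B 74. The list holds 12 genes, and most were not tested. Among these the hemoglobin genes Hba-a1, Hba-a2, Hbb-bs and Hbb-bt were listed at 0 TPM in every lung, for a reason not given in the sources used here. Alas2, the first enzyme of heme synthesis in red cell precursors, was at 9.23, 18.1 and 29.3 TPM in the controls and at 4.02, 5.20 and 3.15 TPM in the A3B lungs (-1.84 ± 0.40, adjusted p = 0.0172) and Bpgm fell by 1.25. Fech, the last enzyme of that synthesis, did not pass the test, at 14.2, 14.7 and 15.1 TPM in the controls and at 16.8, 17.6 and 16.2 TPM in the A3B lungs (0.19 ± 0.08, adjusted p = 0.118), although every A3B lung was above every control. Lymphatic endothelial markers rose in 4 of 5 tested (80%) (median 1.17). Lyve1, the hyaluronan receptor of lymphatic vessels, was at 507, 472 and 373 TPM in the controls and at 2411, 1717 and 1817 TPM in the A3B lungs (2.13 ± 0.17, adjusted p = 0.00176), and the receptor Flt4 was at 19.8, 23.7 and 19.2 TPM in the controls and at 70.0, 48.1 and 40.2 TPM in the A3B lungs (1.26 ± 0.21, adjusted p = 0.00675). Prox1, which defines lymphatic identity and was picked out after its values were seen, did not pass the test, at 0.82 ± 0.27, adjusted p = 0.0548. Alas2 did not pass the test without A3B 69 or A3B 74 (adjusted p up to 0.0581).

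**Figure D4:**
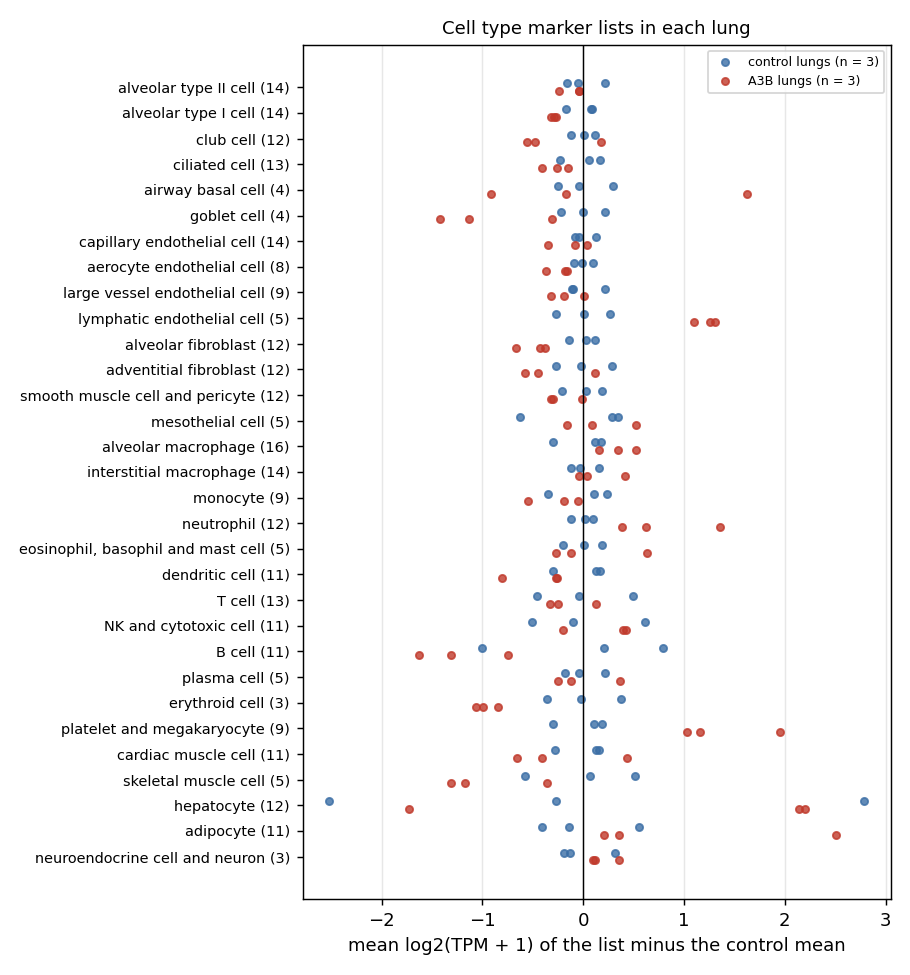
Mean log2(TPM + 1) of each cell type marker list in each lung, minus the mean of the controls, with controls in blue and A3B lungs in red and the number of markers tested in brackets. Platelet and lymphatic lists lie above the controls in all 3 A3B lungs, and the hepatocyte list varies within both groups.

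The mean log2 level and the summed TPM of a list did not always move alike. For alveolar type I markers both were lower in every A3B lung than in any control. For aerocyte markers the mean was lower in every A3B lung, while the sum was higher, at 1001 to 1109 TPM against 837 to 974 TPM, and for alveolar fibroblast markers the mean was lower and the sums overlapped, at 11606 to 12028 TPM against 10720 to 12680 TPM. All 8 markers of aerocytes, the capillary cells of gas exchange, passed the test, 5 lower (62.5%) and 3 higher (37.5%), and 3 were lower without control 88, without control 91 or with no filter on low values. The carbonic anhydrase Car4 was at 303, 317 and 300.1 TPM in the controls and at 179, 203 and 222 TPM in the A3B lungs (-0.61 ± 0.10, adjusted p = 0.00763), whereas the scaffold protein Prx was at 178, 142 and 137 TPM in the controls and at 389, 328 and 260.2 TPM in the A3B lungs (1.08 ± 0.18, adjusted p = 0.00657). Of 12 alveolar fibroblast markers 5 fell (41.7%) and 1 rose (8.33%). Their transcription factor Tcf21 was at 109.8, 103 and 143 TPM in the controls and at 57.4, 56.7 and 57.3 TPM in the A3B lungs (-1.03 ± 0.13, adjusted p = 0.00427), Fgfr4 fell by 1.52 and Wnt2 fell by 1.24 on the log2 scale, while the integrin ligand Npnt did not pass the test (-0.06 ± 0.16, adjusted p = 0.809). Alveolar type I markers fell in 5 of 14 (35.7%), among them the tight junction protein Cldn18, which was at 236, 216 and 219 TPM in the controls and at 79.7, 112 and 121 TPM in the A3B lungs (-1.11 ± 0.16, adjusted p = 0.00549). Of 14 type II markers 2 fell (14.3%), the surfactant protein Sftpc (-0.33 ± 0.09, adjusted p = 0.0236) and Lyz1 (-0.83 ± 0.25, adjusted p = 0.0438), but after trimmed-mean scaling 2 were called higher and none lower, 1 was higher after quantile normalization, and 1 was lower with no filter. The number of type II falls was 1 without A3B 69, 0 without A3B 70, 0 without A3B 74, 1 without control 87, 1 without control 88 and 0 without control 91, and 2 rose without control 88. Of 12 club markers 1 fell (8.33%), and 4 without A3B 70, and of 13 ciliated markers 3 fell (23.1%), and 5 without control 91, beside 20.8% of all genes. Sftpc did not pass the test without control 87, control 91, A3B 69, A3B 70 or A3B 74 (adjusted p up to 0.095). Lyz1 did not pass the test without control 87, control 88, control 91, A3B 70 or A3B 74 (adjusted p up to 0.129). Car4, Sftpc and Lyz1 did not pass the test in the fit over 12 lungs and livers (adjusted p from 0.0894 to 0.321).

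Ccr2, the receptor that brings monocytes into tissue, was at 101, 224 and 174 TPM in the controls and at 29.6, 44.3 and 52.6 TPM in the A3B lungs (-1.92 ± 0.34, adjusted p = 0.00919), and the fractalkine receptor Cx3cr1 was at 4.02, 12.3 and 9.28 TPM in the controls and at 0.839, 1.67 and 1.88 TPM in the A3B lungs (-1.87 ± 0.38, adjusted p = 0.0139). Neither gene overlapped between the groups. Cx3cr1 belongs to the interstitial macrophage list. Of its 14 markers tested 1 fell (7.14%), which was Cx3cr1, 2 rose (14.3%) and 10 were above 0 (median 0.17). In the fit over 12 lungs and livers 0 of these markers rose and 1 fell. Of 9 monocyte markers 3 fell (33.3%, against 20.8% of all genes), namely Ccr2, Plac8 (-1.42) and Ace (-0.46), and 2 rose (22.2%, against 16.1%), namely Fcgr4 (0.93) and Nr4a1 (1.41). The number of monocyte falls was 1 without A3B 70 and 1 without control 91, and that of rises 1 without A3B 69, 1 without A3B 74 and 1 without control 87, and 1 rise with no filter on low values was called. Of 11 B cell markers 2 fell (18.2%), Fcer2a and Cr2, and the median was -1.16. The controls varied among themselves, since the summed level of the list was 172, 391.6 and 641 TPM in controls 87, 88 and 91 and 113, 210.2 and 131 TPM in the A3B lungs. The number of B cell falls was 0 without A3B 69, 0 without A3B 70, 0 without A3B 74, 9 without control 87, 0 without control 88 and 0 without control 91, and 1 fall with a filter at 5 TPM or with no filter on low values was called. Of 12 neutrophil markers 2 rose and none fell, a share of 16.7% against 16.1% of all genes, and the number was 1 without A3B 69, 0 without A3B 70, 1 without control 87, 1 without control 88 and 0 without control 91, and 1 rise with a filter at 5 TPM and 4 rises with no filter on low values were called. Their summed level was highest in A3B lung 74, at 626 TPM. Of 13 T cell markers 2 rose, or 15.4% against 16.1% of all genes, and none fell, but the number of rises was 1 without A3B 69, 1 without A3B 70, 1 without A3B 74, 1 without control 87 and 1 without control 88, and 1 rise with a filter at 5 TPM or with no filter on low values was called, and 4 fell without control 87. Plac8 did not pass the test without control 91 or A3B 70 (adjusted p up to 0.0597). Ace did not pass the test without control 87, control 88, control 91, A3B 69 or A3B 70 (adjusted p up to 0.0652). Nr4a1 did not pass the test without control 87, A3B 69 or A3B 74 (adjusted p up to 0.106). Ccr2, Plac8, Ace and Nr4a1 did not pass the test in the fit over 12 lungs and livers (adjusted p from 0.0893 to 0.187).

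Extracellular matrix was measured by 44 collagen and matrix genes, of which 12 rose (27.3%) and 3 fell (6.82%), and the number of rises was 6 without A3B 69, 4 without A3B 70, 6 without A3B 74, 5 without control 87 and 6 without control 91. The number of falls was 1 without A3B 69, 5 without control 87 and 1 without control 88. The median exon length of this list was 7618 bases. Of the matrix genes 2 rose and 1 fell in the fit over 12 lungs and livers, and the lungs alone gave 7 rises with no filter on low values, 5 falls with a pseudocount of 0.1 or 0.5 or after trimmed-mean scaling and 6 falls after quantile normalization. The crosslinking enzyme Lox was at 1.70, 3.35 and 2.04 TPM in the controls and at 19.4, 16.4 and 14.8 TPM in the A3B lungs (2.43 ± 0.20, adjusted p = 0.00173), the basement membrane chain Lama5 rose by 1.02 and the calcification inhibitor Mgp fell by 1.38. Among 22 matrix proteases and inhibitors 6 rose (27.3%) and 3 fell (13.6%). Of the proteases and inhibitors 3 rose and 2 fell in the fit over 12 lungs and livers. Plat, tissue plasminogen activator, was at 79.2, 66.5 and 52.7 TPM in the controls and at 648, 431 and 375 TPM in the A3B lungs (2.84 ± 0.24, adjusted p = 0.00186). Adamts15 was at 151, 201 and 191 TPM in the controls and at 737, 699.8 and 709.9 TPM in the A3B lungs (1.99 ± 0.12, adjusted p = 0.0014), and Adamts9, which like it cleaves proteoglycans, rose by 2.42. All A3B lungs were above all controls for Lox, Plat and both Adamts genes. Lama5 and Plat did not pass the test in the fit over 12 lungs and livers (adjusted p from 0.121 to 0.252).

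Targets of p53, the transcription factor of the DNA damage response, were measured next. Of 26 tested 9 rose, a share of 34.6% against 16.1% of all genes, and 5 fell, a share of 19.2% against 20.8% (median 0.26), and 2 fell without A3B 69. Of the p53 targets 5 rose and 1 fell in the fit over 12 lungs and livers. Trp53inp1 was at 96.3, 64.1 and 70.4 TPM in the controls and at 394, 357 and 354 TPM in the A3B lungs (2.27 ± 0.16, adjusted p = 0.00164), and the TRAIL receptor Tnfrsf10b was at 1.87, 1.60 and 1.37 TPM in the controls and at 19.2, 9.31 and 10.3 TPM in the A3B lungs (2.35 ± 0.26, adjusted p = 0.00313), whereas its ligand Tnfsf10 fell as given above. Both of these targets were higher in every A3B lung. Of 27 genes of the BCL2 family and cell death 4 rose (14.8%, against 16.1% of all genes) and 11 fell (40.7%, against 20.8%), and the number of falls was 7 without A3B 69, 7 without A3B 70 and 7 without control 91. Of the cell death genes 1 rose and 3 fell in the fit over 12 lungs and livers. The survival factor Bcl2l1 rose by 1.11, and the BH3-only gene Bik fell by 0.75. Of 15 uracil base excision repair genes none rose and 3 fell (20%, against 20.8% of all genes), and 1 fell without A3B 69. Of these repair genes 0 rose and 1 fell in the fit over 12 lungs and livers. In the same list 1 gene rose without A3B 74, without control 88, or after either other scaling. Bcl2l1 did not pass the test in the fit over 12 lungs and livers (adjusted p = 0.126).

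In cholesterol synthesis and uptake 5 of 29 genes rose (17.2%, against 16.1% of all genes) and 11 fell (37.9%, against 20.8%), and the number of rises was 3 without A3B 69, 3 without A3B 70, 3 without control 88 and 2 without control 91. Of the cholesterol genes 2 rose and 1 fell in the fit over 12 lungs and livers, and the lungs alone gave 2 rises with no filter on low values. Msmo1, a sterol demethylase, was at 494, 442 and 462 TPM in the controls and at 279, 269 and 282 TPM in the A3B lungs (-0.75 ± 0.09, adjusted p = 0.00336), and mevalonate kinase Mvk fell by 0.83. Pmvk, which carries out the step after Mvk, moved the other way and was at 211, 105 and 148 TPM in the controls and at 1126, 801 and 641 TPM in the A3B lungs (2.48 ± 0.30, adjusted p = 0.00413). The 2 enzymes were each separate between the groups. Ion transport genes rose in 5 of 18 tested (27.8%, against 16.1% of all genes), none fell, and the number of rises was 3 without control 91. Of the ion transport genes 3 rose and 0 fell in the fit over 12 lungs and livers, and the lungs alone gave 8 rises after trimmed-mean scaling. Msmo1 did not pass the test in the fit over 12 lungs and livers (adjusted p = 0.0537).

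Mouse deaminases and their cofactors were measured as well. Of 7 tested 4 rose (57.1%) and 1 fell (14.3%), and 2 fell without control 87. Of the deaminase list 1 rose and 0 fell in the fit over 12 lungs and livers. Adar, which deaminates adenosine in double-stranded RNA, was at 216, 287 and 261 TPM in the controls and at 454, 391.6 and 442 TPM in the A3B lungs (0.76 ± 0.13, adjusted p = 0.00763). The single mouse Apobec3 gene was at 28.7, 38.2 and 34.4 TPM in the controls and at 18.0, 19.4 and 23.7 TPM in the A3B lungs (-0.70 ± 0.15, adjusted p = 0.0132). The groups were apart in both genes, in opposite directions. Adarb1 rose by 0.70 and Rbm47, a cofactor of Apobec1, by 0.86, while Apobec1 did not pass the test (-0.42 ± 0.27, adjusted p = 0.251). Of 21 transcripts that the study resequenced for C-to-U changes, a list of which part was chosen on these lungs and part on livers, so that it is not independent evidence of a direction, 7 rose (33.3%) and 2 fell (9.52%), and the number of rises was 4 without A3B 69 and 4 without A3B 74. Of the resequenced transcripts 3 rose and 1 fell in the fit over 12 lungs and livers, and the lungs alone gave 1 fall with a filter at 5 TPM. Lpin2 was at 109, 83.2 and 83.2 TPM in the controls and at 236, 211 and 215 TPM in the A3B lungs (1.27 ± 0.13, adjusted p = 0.00279). The number of falls was 0 without A3B 69, 0 without A3B 70, 1 without A3B 74, 1 without control 87, 0 without control 88 and 1 without control 91. Adar, Apobec3 and Rbm47 did not pass the test in the fit over 12 lungs and livers (adjusted p from 0.169 to 0.315).

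**Figure D5:**
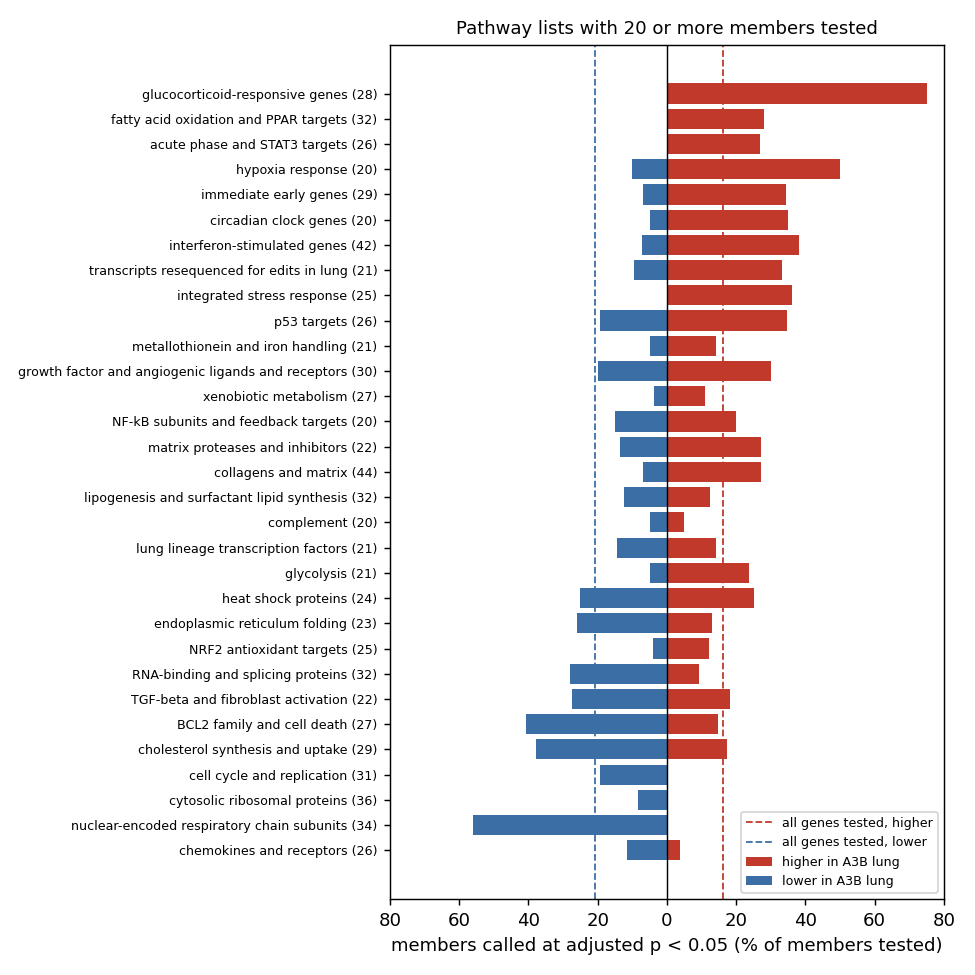
Share of members called higher (red, right) or lower (blue, left) in A3B lung, in percent of the members tested, for pathway lists with at least 20 members tested (number in brackets), ordered by median fold change. Dashed lines give 16.1% higher and 20.8% lower for all genes tested, and the glucocorticoid list reaches 75% higher.

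The A3B effect in lung was set against that in 6 livers of the same table, and it differed for 1506 genes, 11% of those tested (limma interaction term), with the lung effect above for 248 and below for 1258. Genes entered this comparison by their mean level in lung alone, so a gene with little RNA in liver can differ through its lung effect only. After trimmed-mean scaling it was above for 356 and below for 556. Glucocorticoid-responsive genes had a median fold change of 1.82 in those livers, against 0.27 for all genes tested, and 3 of the 28 differed between the tissues.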

How the data were processed

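RNA-seq of 6 lungs and 6 livers was read from 1 deposited table of TPM. Per its methods, the study aligned stranded, paired total RNA reads to mm10 with STAR and marked duplicates with Picard before the authors made TPM values per gene. The column headers name deduplicated alignments. The annotation is not given in the sources used here. TPM keep no read counts, so the depth is unknown. The members and lists were chosen with earlier results of these data known. TPM were log2-transformed after adding 1, genes averaging 1 TPM or more across the lungs were kept, and limma 3.58.1 (R 4.3.3; trend and robust settings) gave two-sided tests with Benjamini-Hochberg adjustment at 0.05 over 13651 genes. Groups were taken from the labels, each lung is a separate mouse, and 26 gene names turned into dates were kept as listed. Named genes were the 15 largest rises and 15 largest falls among called genes whose groups did not overlap and whose higher group averaged at least 5 TPM, and of each list the 4 with the smallest p and the 3 most abundant. The lung and liver effects were compared by an interaction term over 12 samples. Alternatives were other pseudocounts, filters and scalings, a fit over 12 samples, a mouse block and leaving out each lung. On simulated data for 13651 genes, 68% of genes changed by 1 and 94% of those changed by 2 on the log2 scale were recovered. Promoter windows came from RefSeq (GRCm38.p6). Some genes of the lists are not reported by name here.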

Additional observations from a re-analysis of the deposited data

Results flagged for a closer look

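The A3B effect differed between lung and liver for 1506 of 13651 genes by the limma interaction term, with the lung effect above the liver effect for 248 and below it for 1258. The median effect over all genes was -0.06 in lung and 0.27 in liver, and trimmed-mean scaling gave 356 above and 556 below. For the genes named here, the lung effect minus the liver effect on the log2 scale was Doc2b 3.80, Ramp3 2.70, Nr4a3 2.86, Tcf23 2.17, Adamts9 1.97, Gp1ba 1.90, Lox 2.36, Msmo1 1.25, Mvk 1.34, Nr4a2 1.54, Pmvk 5.22 and Tubb1 2.11, all with an adjusted p under 0.05. It was hAPOBEC3B -3.50, Tnfsf10 -2.82, Wfdc16 -2.10, Ppp2r2c -2.70, 8430426J06Rik -3.30, Fam181b -2.12, 9030404E10Rik -2.35, Scn3b -2.18, Hpcal4 -2.14, Gm11627 -2.16, Bik -1.32, Cebpd -1.91, Cldn18 -1.17, Csnk1e -1.45, E2f1 -1.27, Jun -2.21, Mgp -1.42, Npnt -2.36 and Pdgfb -1.95, likewise with an adjusted p under 0.05. The transgene, hAPOBEC3B, thus rose less in lung than in liver. Genes entered this comparison by their mean level in lung alone, and many of those named were chosen by their change in lung. Where liver RNA is low, such a difference can hold the lung effect alone. Levels in liver are not reported here. The labels give 14 days of treatment for 2 of the 3 A3B livers and 10 days for the A3B lungs, and mice 70 and 91 gave both tissues.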

How the results depend on the processing

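The number of genes called in the lung, 5029, stayed within 1.5 times under both other pseudocounts, both other filters, both scalings and variances without the robust setting, from 4089 to 5030. One fit over the 12 lungs and livers, which adds the spread of the livers, called 1009, and 991 of these were among the 5029. Leaving out each lung gave 3008 to 4556 calls, with the lowest, 3008, without A3B 69, 3057 without A3B 70 and 3329 without control 91. The share of calls that were higher was 43.6%, and 50.9% after trimmed-mean scaling. Leaving out A3B 69 and control 87 together gave 1804. That alternative was chosen after seeing the data, and it was run before a reason for it was recorded. For the difference between lung and liver, 1506 genes, the replicate block of mouse number (consensus correlation 0.5329, from mice 70 and 91 with both tissues) gave 2676, trimmed-mean scaling gave 912, with 356 above and 556 below, and leaving out each sample gave 556 to 3008. No paired analysis was possible within the lung because A3B and control lungs share no mouse number. The transgene kept its direction throughout. Among 252 named genes with a call, 69 lost it without at least 1 lung, 149 lost it in the 12-sample fit, and 1, Syp, changed direction, to 0.0335 with a filter at 5 TPM. The median of 23 of 71 lists changed sign under at least 1 alternative. TPM carry no read counts, so depth is unknown, and 3 mice per group, with illness and treatment time that differ between groups, limit every comparison. The driver and, by the list of animals, doxycycline differ in part between the groups as well.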

Other observations

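Some other lists were also measured. Of 25 integrated stress response genes, which restore protein balance under stress, 9 rose (36%) and none fell (median 0.33, and 3 rose and 0 fell in the fit over 12 lungs and livers). The amino acid transporter Slc7a5 was at 4.64, 4.26 and 3.94 TPM in the controls and at 27.5, 20.9 and 11.8 TPM in the A3B lungs (1.93 ± 0.28, adjusted p = 0.00557), and the stress cytokine Gdf15 rose by 1.13. Of 26 acute phase and STAT3 targets 7 rose (26.9%) and none fell (median 0.61, and 0 rose and 0 fell in the fit over 12 lungs and livers), among them the interleukin 6 receptor Il6ra, at 9.63, 9.55 and 7.17 TPM in the controls and at 22.5, 24.2 and 21.9 TPM in the A3B lungs (1.30 ± 0.13, adjusted p = 0.00257), and the feedback inhibitor Socs3, up by 1.25.

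Among 31 cell cycle and replication genes none rose and 6 fell, a share of 19.4% against 20.8% of all genes, and 10 fell without control 87, while 0 rose and 1 fell in the fit over 12 lungs and livers, and the lungs alone gave 2 falls with a filter at 5 TPM. E2f1, which drives entry into S phase, was at 12.4, 17.4 and 12.8 TPM in the controls and at 6.41, 7.18 and 7.17 TPM in the A3B lungs (-0.93 ± 0.14, adjusted p = 0.00591). Among 30 growth factor and angiogenic genes 9 rose (30%, against 16.1% of all genes) and 6 fell (20%, against 20.8%), and 5 rose without A3B 70 or without control 91, while 3 rose and 3 fell in the fit over 12 lungs and livers. Pdgfb, the endothelial signal to pericytes, was at 7.71, 10.9 and 7.79 TPM in the controls and at 0.770, 1.81 and 1.80 TPM in the A3B lungs (-2.01 ± 0.22, adjusted p = 0.00313), and the VEGF receptor Flt1 was at 18.3, 16.1 and 14.2 TPM in the controls and at 70.1, 42.4 and 41.5 TPM in the A3B lungs (1.57 ± 0.22, adjusted p = 0.00487). In both genes every A3B lung was apart from every control. Of 24 heat shock genes 6 rose (25%, against 16.1% of all genes) and 6 fell (25%, against 20.8%), with a median of 0.0036, and the number of rises was 2 without A3B 69, 2 without A3B 70 and 3 without control 91. Of the heat shock genes 1 rose and 1 fell in the fit over 12 lungs and livers. The named genes ranged from Hspb8 (1.39 ± 0.16, adjusted p = 0.00313) to Cryab (-0.89 ± 0.10, adjusted p = 0.00313). The lung mesenchymal factor Foxf1 rose by 1.29. Gdf15, Il6ra, Socs3 and Cryab did not pass the test in the fit over 12 lungs and livers (adjusted p from 0.155 to 0.374).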
